A study of Homo sapiens with 6 samples.

Results

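Clustered protocadherins are a family of cell surface adhesion proteins whose genes lie side by side in 3 groups, alpha, beta and gamma, on the long arm of chromosome 5. The genes were taken from the count table by symbol (PCDHA1 to PCDHA14, PCDHAC1 and PCDHAC2, PCDHB1 to PCDHB16, and PCDHGA, PCDHGB and PCDHGC with their numbers), which gave 54 of 60623 genes: 16 alpha, 16 beta and 22 gamma. Their expression was compared in TC28a2 cells, an immortalized human chondrocyte line, after 24 hours with 2 μM mocetinostat, an inhibitor of class I histone deacetylases (HDACs), or with the solvent DMSO. Each condition had 3 samples of this 1 line, described by the study as independent experiments, and total RNA was sequenced after ribosomal RNA depletion.

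Each alpha or gamma gene begins with its own large variable exon, which carries a promoter and encodes the extracellular cadherin repeats, the membrane span and part of the cytoplasmic tail. This exon is spliced to small constant exons shared by the whole cluster, so that proteins of a cluster end alike and differ outside the cell. Beta genes are single-exon genes with no constant part. Neurons choose different sets of these genes, and the matching of extracellular domains lets a neuron recognize its own branches. The choice of alpha, beta and most gamma promoters is known to involve DNA methylation and looping by the zinc finger protein CTCF and the ring complex cohesin, whereas the C-type genes at the cluster ends (PCDHAC1, PCDHAC2, PCDHGC3, PCDHGC4 and PCDHGC5) are regulated more constitutively in neurons.

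By the GENCODE 44 annotation of GRCh38, the clusters occupied 727 kb of the plus strand, chr5:140786136-141512977. The alpha cluster spanned 226 kb, the beta cluster 198 kb and the gamma cluster 182 kb. The alpha constant exons measured 59, 89 and 2721 bases and the gamma constant exons 59, 89 and 2029 bases. Exon sequence shared with another gene of the same strand made up 21.4% to 56.6% of each protein-coding alpha gene and 27.5% to 64.4% of each gamma gene, but at most 9.54% of any beta gene. How reads over shared exons were assigned is not stated in the sources used here. PCDHGA3 had 0 counts in DMSO sample 2 and in mocetinostat samples 2 and 3, while PCDHGC3 with the same constant exons had 750, 93 and 121, so such reads were not given to every gene. PCDHA14, a pseudogene lying wholly inside an exon of PCDHA10, had 0 counts in all 6 samples.

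Promoter sequence is shown because the variable exons of a cluster carry a common short element just upstream, which differs between clusters. RefSeq promoters (GRCh38.p14, 250 bases before to 50 after the start) were matched for 47 of the 54 genes, with PCDHA3, PCDHA13, PCDHA14, PCDHB6, PCDHB11, PCDHGA12 and PCDHGC5 not shown. Capitals mark TGTCGCT in alpha, GTGGCGCT in beta and GCCGCTG in gamma genes, and CGCT alone in PCDHAC1. Each window is 40 bases upstream of the start on the plus strand, and the capitals begin at positions -72 to -15 relative to it.
PCDHA11, chr5:140868880-140868919: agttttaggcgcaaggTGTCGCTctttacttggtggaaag
PCDHAC1, chr5:140926220-140926259: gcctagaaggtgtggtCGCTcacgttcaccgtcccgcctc
PCDHB2, chr5:141094540-141094579: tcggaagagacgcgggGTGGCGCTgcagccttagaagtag
PCDHB5, chr5:141135166-141135205: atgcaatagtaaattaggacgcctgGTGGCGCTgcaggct
PCDHB13, chr5:141213861-141213900: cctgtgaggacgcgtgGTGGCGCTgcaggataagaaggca
PCDHB16, chr5:141182306-141182345: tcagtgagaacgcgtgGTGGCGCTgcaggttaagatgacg
PCDHGB1, chr5:141350023-141350062: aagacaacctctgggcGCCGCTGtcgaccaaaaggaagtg
PCDHGB5, chr5:141397861-141397900: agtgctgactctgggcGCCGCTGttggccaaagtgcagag
PCDHGA11, chr5:141420970-141421009: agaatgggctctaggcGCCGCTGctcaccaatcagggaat
PCDHGC3, chr5:141475878-141475917: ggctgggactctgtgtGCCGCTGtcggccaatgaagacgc
PCDHGC4, chr5:141484950-141484989: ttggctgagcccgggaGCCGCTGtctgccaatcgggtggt

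These letter strings were picked from the promoters themselves, contain CGCT in common and were counted on both strands of the 300-base entries. TGTCGCT was found in 10 of 13 alpha, 1 of 14 beta and 3 of 20 gamma genes, against 1.76% of 35116 promoters. GTGGCGCT was found in 13 of 14 beta genes and in no alpha or gamma gene, against 1.15% of all promoters. GCCGCTG was found in 12 of 20 gamma genes and in no alpha or beta gene, against 11.1%. CGCT itself was in 46 of the 47 genes, PCDHA9 being the exception, but also in 70.0% of all promoters. The gamma string stood upstream of PCDHGB1, PCDHGB5, PCDHGA11, PCDHGC3 and PCDHGC4, whose responses to mocetinostat differed as given below.

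Total counts were 4873426 to 11031132 in the DMSO libraries and 1619344 to 5089542 in the mocetinostat libraries, so the treated samples were shallower. Levels are given as CPM, the count scaled to a fixed library total after trimmed mean of M values (TMM) normalisation, and gene tests were edgeR quasi-likelihood tests over the 13966 genes that passed a filter on low counts. Calls needed both a Benjamini-Hochberg adjusted p below 0.05 and a log2 fold change beyond 1 in size. By this rule 20.2% of all genes tested were upregulated and 8.18% were downregulated. In this bulk RNA, a change in the number of cells that express a gene and a change in RNA per cell cannot be told apart. SOX9, a chondrocyte transcription factor, was at 106 ± 13.6 CPM with DMSO and 180 ± 14.4 CPM with mocetinostat (SD, n = 3), whereas the cartilage collagen COL2A1 was at only 2.20 ± 0.68 CPM and the cartilage proteoglycan ACAN at 4.72 ± 0.69 CPM with DMSO.

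With mocetinostat the calls among alpha and beta genes were all upward, most tested gamma genes were not called, and PCDHGC3, the most abundant member, fell. Of the 54 genes 21 were tested, 2 alpha, 7 beta and 12 gamma. Both tested alpha genes, 6 of the 7 beta genes and 1 of the 12 gamma genes were upregulated, and 2 gamma genes were downregulated. The median log2 fold change was 5.12 over the tested alpha genes, 1.67 over beta and -0.02 over gamma, beside -0.002 over all genes tested. With PCDHAC1, at 0 counts with DMSO, set to its lower bound, the alpha median was 3.85. The members were weakly expressed, with a median level of 3.09 CPM against 28.3 CPM for all genes tested. Below 10 CPM, 40.1% of all genes tested were upregulated and 6.24% downregulated, and in that range 9 of 16 members were upregulated and 1 was downregulated. Alpha and beta genes that were near 0 with DMSO could pass the filter only if they were higher with mocetinostat, so the counts among tested genes describe those genes and not the clusters. Without the filter all 53 members with a count were tested, and 5 alpha, 3 beta and no gamma genes were upregulated and 2 gamma genes downregulated, where 7.9% and 5.23% of all genes were called in these directions. DESeq2 called 5 alpha and 4 beta genes upregulated and 1 gamma gene, PCDHGC3, downregulated, against 15.2% and 5.29% of the genes it tested.

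**Figure D1:**
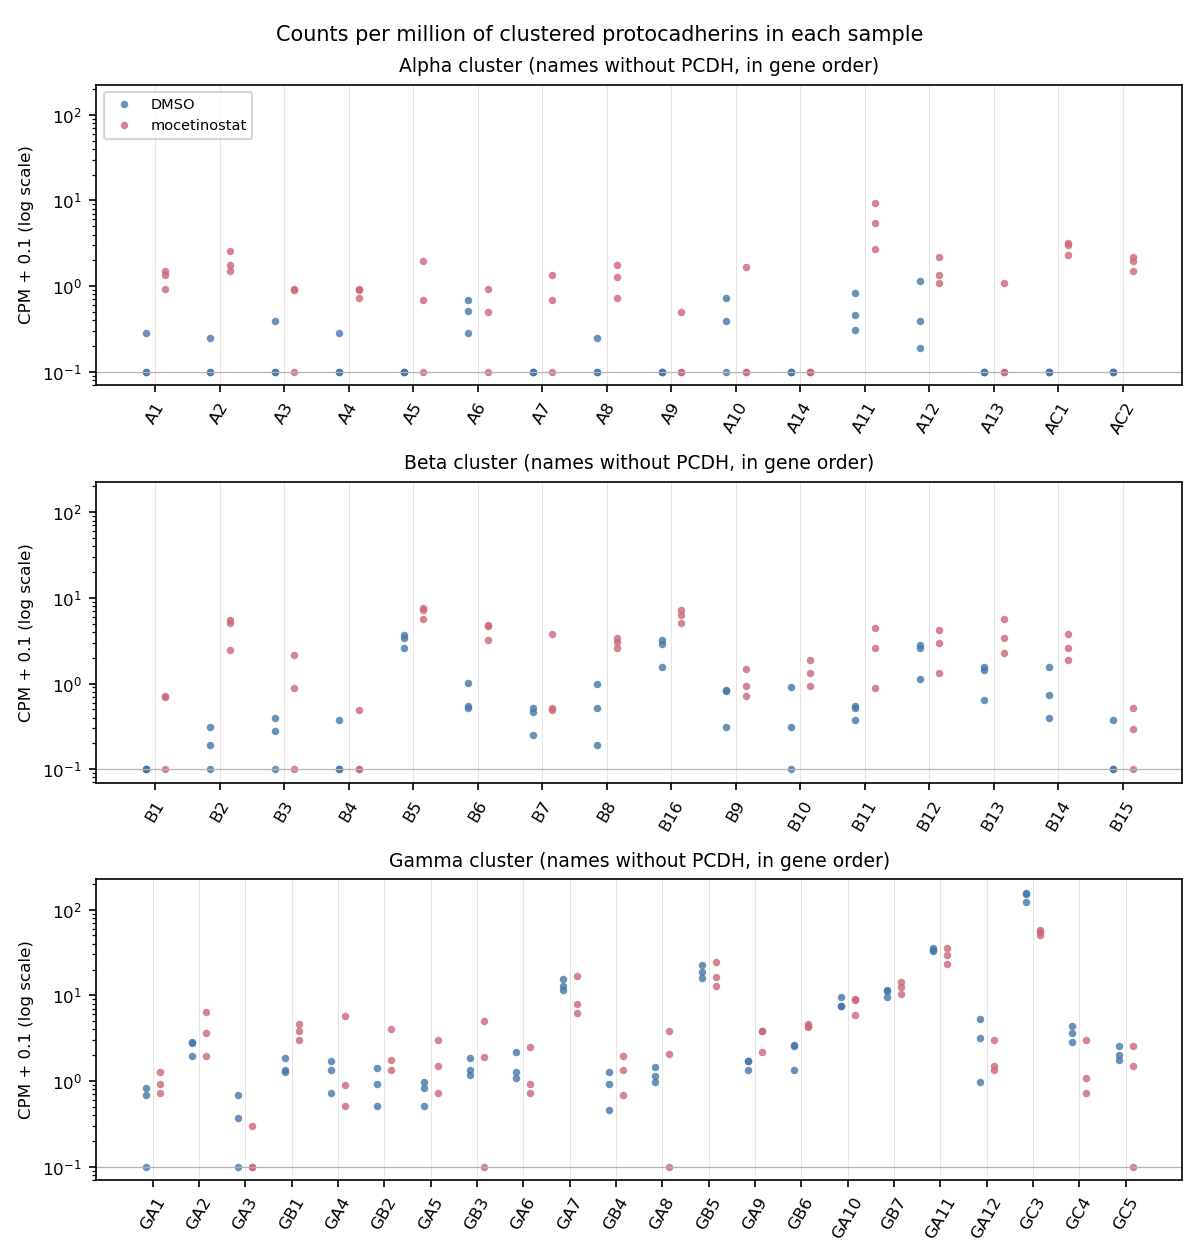
Level of each of the 54 clustered protocadherins in each of the 6 samples, as CPM plus 0.1 on a log axis, in gene order. Points are samples (blue DMSO, red mocetinostat), the grey line marks 0 counts, and PCDHGC3 is the highest gene in both conditions.

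Sums over whole clusters include every member, whether or not it passed the filter, although the scaling to CPM was taken from the genes that passed. The summed alpha level was 1.00, 2.29 and 2.51 CPM in the DMSO samples and 17.2, 22.3 and 20.3 CPM in the mocetinostat samples, a 10.3-fold ratio of the means. The summed beta level was 13.2, 11.0 and 13.7 CPM with DMSO and 36.3, 42.8 and 44.3 CPM with mocetinostat, 3.25-fold higher. In both clusters every treated sample lay above every DMSO sample. The summed gamma level went the other way, with 228, 269 and 261 CPM with DMSO and 167, 176 and 152 CPM with mocetinostat. Since gamma genes held most of the counts, the family as a whole changed less, from 267 ± 21.7 to 226 ± 13.2 CPM (SD, n = 3). No test was made of these sums.

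**Figure D2:**
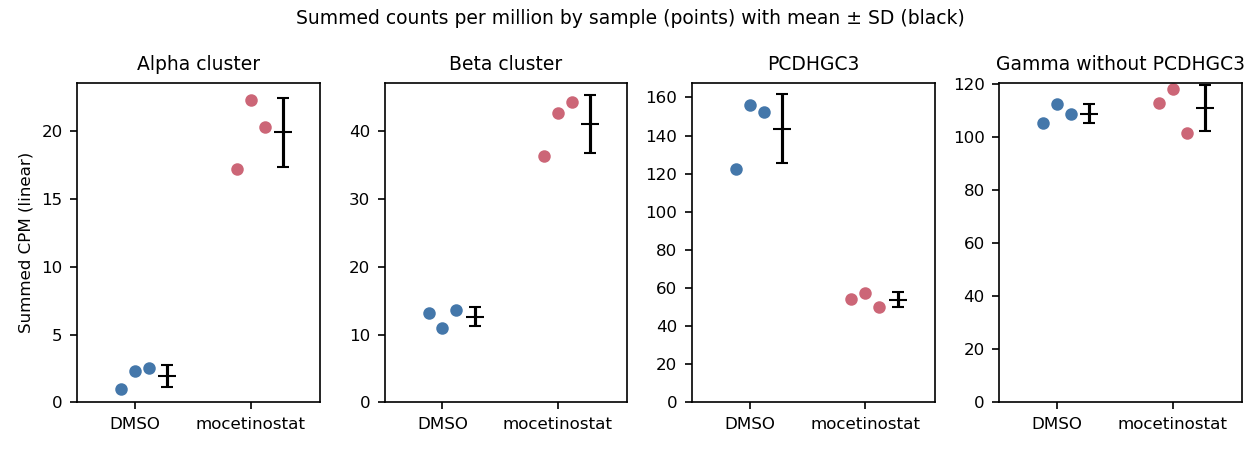
Summed CPM (linear axes from 0) in each sample for the alpha cluster, the beta cluster, PCDHGC3 and the other 21 gamma genes, with mean ± SD (n = 3) in black. Alpha and beta sums are higher in every mocetinostat sample, PCDHGC3 is lower, and the other gamma genes overlap between conditions.

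The makeup of protocadherin counts shifted accordingly. Alpha genes made up 0.41% to 0.90% of the family's counts in the DMSO samples and 7.82% to 9.39% in the mocetinostat samples. Beta genes made up 3.91% to 5.45% and 16.4% to 20.5%. Gamma genes fell from a share of 94.1% to 95.3% to one of 70.1% to 75.7%, with no overlap between the conditions for any cluster. These shares come from counts within a sample and so do not depend on how the libraries were scaled.

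Alpha genes were close to undetected with DMSO. The DMSO samples held 11, 11 and 17 counts over all 16 genes, and the shallower mocetinostat samples 87, 36 and 49. At least 1 count was seen for 4 to 7 alpha genes per DMSO sample and for 9 to 15 per mocetinostat sample. The raw count summed over the 3 samples was higher with mocetinostat for 14 of the 15 genes with a count, PCDHA6 being the exception, against 35.4% of all 40504 genes with a count and 44.2% of those below 10 CPM. Relative to depth, the exact 95% interval of the count ratio lay above 1 for 13 of the 15 and below 1 for none, against 25.9% of all genes with a count and 22.8% of those below 10 CPM with an interval above 1. These intervals cover counting error only.

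PCDHA11, a variable alpha isoform, had 4, 1 and 5 counts in the DMSO samples against 13, 15 and 13 after mocetinostat. In CPM these were 0.36, 0.21 and 0.74 against 2.58, 9.30 and 5.39, and the groups did not overlap. Its log2 fold change was 3.45 ± 0.61 (SE), with an edgeR adjusted p of 1.14e-06. PCDHAC1, the first C-type gene of the cluster, had 0 counts in all DMSO samples and 11, 5 and 7 with mocetinostat. With 3 counts over the DMSO group as the floor, it was at least 19.1-fold higher with mocetinostat (edgeR adjusted p = 3.64e-07). PCDHAC2, the second C-type gene, likewise had 0 counts in the DMSO samples against 7, 3 and 5 after mocetinostat, at least 12.5-fold higher, but did not pass the filter and was not tested. In PCDHA11 and both C-type genes every mocetinostat sample thus lay above every DMSO sample. PCDHA2, also untested, went from 1 count over the DMSO group to 15, a ratio of 37.4 relative to depth with a wide counting interval of 5.76 to 1576. Without mocetinostat sample 1 PCDHAC1 was no longer tested, leaving PCDHA11 as the only alpha gene called.

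Beta genes were detected in most samples but at low levels, 53 to 146 counts per DMSO sample over the 16 genes and 69 to 183 per mocetinostat sample. The count ratio relative to depth was above 1 for all 16, against 60.5% of all genes with a count and 66.3% of those below 10 CPM, and the counting interval was above 1 for 12, against the 25.9% and 22.8% given above. PCDHB4, PCDHB9, PCDHB12 and PCDHB15 had intervals that spanned 1. PCDHB2 changed most among the tested beta genes. It had 1, 1 and 0 counts in the DMSO samples against 12, 8 and 13 after mocetinostat, or 0.09, 0.21 and 0 against 2.38, 4.96 and 5.39 CPM, a log2 fold change of 5.13 ± 0.81 (edgeR adjusted p = 8.22e-08). An annotated gene on the other strand overlaps 43.9% of PCDHB2's exon sequence, and whether counting used strand is not stated, so part of these reads may belong to that gene. Other members share this limit, among them PCDHA1 (48.6%), PCDHB16 (21.2%), PCDHB5 (14.7%) and PCDHGB1 (11.6%).

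PCDHB6 rose from 0.91, 0.42 and 0.44 CPM to 4.76, 3.10 and 4.56 CPM, a log2 fold change of 2.70 ± 0.56 (edgeR adjusted p = 2.12e-05). PCDHB8 rose from 0.09, 0.42 and 0.88 CPM to 2.97, 2.48 and 3.32 CPM, a log2 fold change of 2.78 ± 0.67 (edgeR adjusted p = 0.00023). Both were near 0 with DMSO, and neither pair of groups overlapped. Of PCDHB8's 100-base windows 25.5% recur elsewhere in the region, the highest share in the family, so its reads may be divided with near-identical genes.

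PCDHB5 and PCDHB16, the beta genes with the highest DMSO levels, changed least among those called. Genes nearer 0 with DMSO could be tested and called only at larger changes, so no relation of level to response can be read from this order. PCDHB16 had 2.80, 1.46 and 3.09 CPM with DMSO and 6.15, 4.96 and 7.05 CPM with mocetinostat, a log2 fold change of 1.26 ± 0.41 (edgeR adjusted p = 0.00585). PCDHB5 had 2.53, 3.33 and 3.54 CPM against 5.55, 7.44 and 7.05 CPM, a log2 fold change of 1.07 ± 0.39 (edgeR adjusted p = 0.0141). PCDHB13 had 0.54, 1.46 and 1.33 CPM against 2.18, 5.58 and 3.32 CPM, a log2 fold change of 1.67 ± 0.57 (edgeR adjusted p = 0.00857). These 3 calls were lost under DESeq2, with adjusted p-values of 0.0628 for PCDHB16, 0.0917 for PCDHB5 and 0.0722 for PCDHB13. PCDHB12, at 2.71, 1.04 and 2.51 CPM with DMSO and 4.16, 1.24 and 2.90 CPM with mocetinostat, was the tested beta gene not called (log2 fold change 0.50 ± 0.49, edgeR adjusted p = 0.378). Its promoter was among the 13 of 14 beta promoters with GTGGCGCT.

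**Figure D3:**
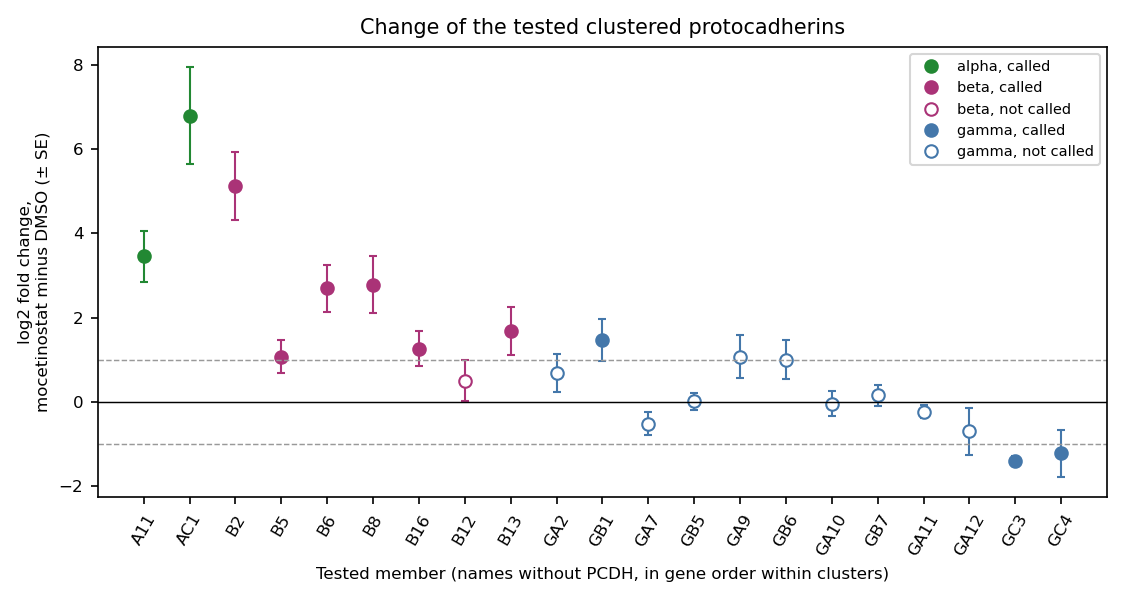
Log2 fold change (mocetinostat minus DMSO, ± SE) of the 21 tested clustered protocadherins, in gene order within each cluster, with dashed lines at -1 and 1. Filled symbols passed both thresholds, which 9 genes did above and 2 below, and PCDHAC1 (6.79) is a fitted value against a group at 0 counts.

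Gamma genes carried most of the expression and mostly did not pass the test. PCDHGC3, a C-type gene expressed in many tissues outside the nervous system, was an exception. It had 1356, 750 and 1033 counts in the DMSO samples against 273, 93 and 121 after mocetinostat, or 123, 156 and 152 CPM against 54.1, 57.6 and 50.1 CPM. The groups were far apart, the log2 fold change was -1.41 ± 0.12 and the edgeR adjusted p was 5.99e-18. Per kilobase of exon sequence that no other gene shares, PCDHGC3 had the highest level of the family in both conditions, 44.2 CPM per kb with DMSO and 16.6 CPM per kb with mocetinostat. Next was PCDHGA11, at 9.31 and 8.06 CPM per kb.

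PCDHGC3 made up 53.8%, 58.1% and 58.4% of gamma counts in the DMSO samples and 32.4%, 32.7% and 33.1% in the mocetinostat samples. The exact 95% intervals of these shares, 51.8% at the lowest with DMSO and 38.5% at the highest with mocetinostat, cover counting error only. The other 21 gamma genes summed to 109 ± 3.58 CPM with DMSO and 111 ± 8.60 CPM with mocetinostat (SD, n = 3), a split chosen after their values were seen. The fall kept an adjusted p of 0.000455 with libraries scaled to GAPDH, but its log2 fold change of -0.88 was then short of the threshold. GAPDH itself was lower with mocetinostat (log2 fold change -0.53 ± 0.06), and that scaling moved the median of all genes by 0.54.

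The other C-type gamma genes were much less abundant. PCDHGC4 had 30, 17 and 29 counts in the DMSO samples against 5, 1 and 7 after mocetinostat, or 2.71, 3.54 and 4.27 against 0.99, 0.62 and 2.90 CPM. These groups overlapped, and its log2 fold change of -1.23 ± 0.55 passed narrowly (edgeR adjusted p = 0.0446), a call not kept with DESeq2 (adjusted p = 0.205). PCDHGC5 had 27, 8 and 13 counts against 7, 4 and 0 and was not tested, with a count ratio relative to depth of 0.57 and a counting interval of 0.27 to 1.12. Thus, among the C-type genes, the 2 of the alpha cluster were higher and the tested 2 of the gamma cluster lower. The difference between these pairs was not tested.

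Among the remaining gamma genes, PCDHGB1 alone was upregulated, from 1.18, 1.25 and 1.77 CPM to 4.56, 3.72 and 2.90 CPM (log2 fold change 1.46 ± 0.50, edgeR adjusted p = 0.00852, 0.104 with DESeq2). PCDHGA9 had 1.63, 1.25 and 1.62 CPM with DMSO and 3.77, 3.72 and 2.07 CPM with mocetinostat (log2 fold change 1.07 ± 0.51, edgeR adjusted p = 0.0599). PCDHGB6 had 2.44, 1.25 and 2.51 CPM against 4.16, 4.34 and 4.56 CPM (log2 fold change 1.00 ± 0.46, edgeR adjusted p = 0.0501). Neither PCDHGA9 nor PCDHGB6 was called, although in each the groups did not overlap, a pattern with mocetinostat above that 33.7% of all genes tested showed.

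The abundant A- and B-type gamma genes gave narrower intervals, which included 0. PCDHGA11 had 33.3, 32.9 and 35.2 CPM with DMSO and 29.1, 35.9 and 22.8 CPM with mocetinostat, and its log2 fold change of -0.23 had an approximate 95% interval of -0.55 to 0.09. PCDHGB5 had 18.5, 22.3 and 15.8 CPM against 24.4, 16.1 and 12.8 CPM, with a log2 fold change of 0.01 and an interval of -0.39 to 0.41. For PCDHGB7 the log2 fold change was 0.15 (interval -0.34 to 0.64) and for PCDHGA10 -0.04 (interval -0.62 to 0.54). PCDHGA7, at 13.2 CPM with DMSO, was at -0.52 ± 0.27 (interval -1.06 to 0.01, edgeR adjusted p = 0.0867, 0.0138 without the filter). PCDHGA12 (-0.70 ± 0.56) and PCDHGA2 (0.68 ± 0.46) did not pass the test either. Over all 22 gamma genes the counting interval lay above 1 for 6, against 25.9% of all genes with a count, and spanned 1 for 12. It lay below 1 for PCDHGC3, PCDHGC4, PCDHGA7 (0.51 to 0.86) and PCDHGA11 (0.73 to 0.98). The share of all genes with an interval below 1 was not computed, so no excess can be read from these. The signs of PCDHGA7, PCDHGA10 and PCDHGA11 turned positive with GAPDH scaling, and those of PCDHGB5 and PCDHGB7 turned negative without the filter on low counts. By type, the 12 A genes summed to 67.2 ± 2.49 and 64.3 ± 10.1 CPM, the 7 B genes to 36.1 ± 2.32 and 43.9 ± 5.24 CPM, and the 3 C genes to 149 ± 18.6 and 56.8 ± 3.85 CPM (DMSO, then mocetinostat).

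Genes around the clusters were examined to see whether the whole region moved. Of 31 protein-coding neighbours inside the region or within 500 kb, 24 were tested, with a median log2 fold change of -0.05. Of these 24, 4 were upregulated and none was downregulated, where 20.2% and 8.18% of all genes tested were. At an edgeR adjusted p below 0.05 without the fold threshold, which 64.3% of all genes tested met, neighbours lay on both sides of 0. TAF7, a transcription factor subunit gene between the beta and gamma clusters, had 84.0, 84.8 and 99.9 CPM with DMSO and 87.8, 83.0 and 76.7 CPM with mocetinostat (log2 fold change -0.11 ± 0.11). DIAPH1, an actin nucleator gene 2.04 kb beyond the gamma cluster, had a log2 fold change of 0.06 ± 0.08. Beyond it, HDAC3, which encodes one of the targets of mocetinostat, was at 0.44 ± 0.12 and was not called. On the alpha side HARS, a histidyl-tRNA synthetase gene, was the lowest tested neighbour at -0.84 ± 0.12.

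The 4 neighbours called were CD14, a lipopolysaccharide co-receptor (log2 fold change 2.73 ± 0.50), TMCO6 (1.22 ± 0.29), FCHSD1 (1.49 ± 0.17) and PCDH1. PCDH1, a protocadherin outside the clusters, lies 340 kb from the gamma cluster and had 5, 1 and 4 counts in the DMSO samples against 446, 134 and 213 after mocetinostat. Its log2 fold change was 7.55 ± 0.25 (edgeR adjusted p = 1.5e-39), beyond that of any tested clustered protocadherin. PCDHAC1's fitted 6.79 is no bound, since its DMSO counts were all 0.

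**Figure D4:**
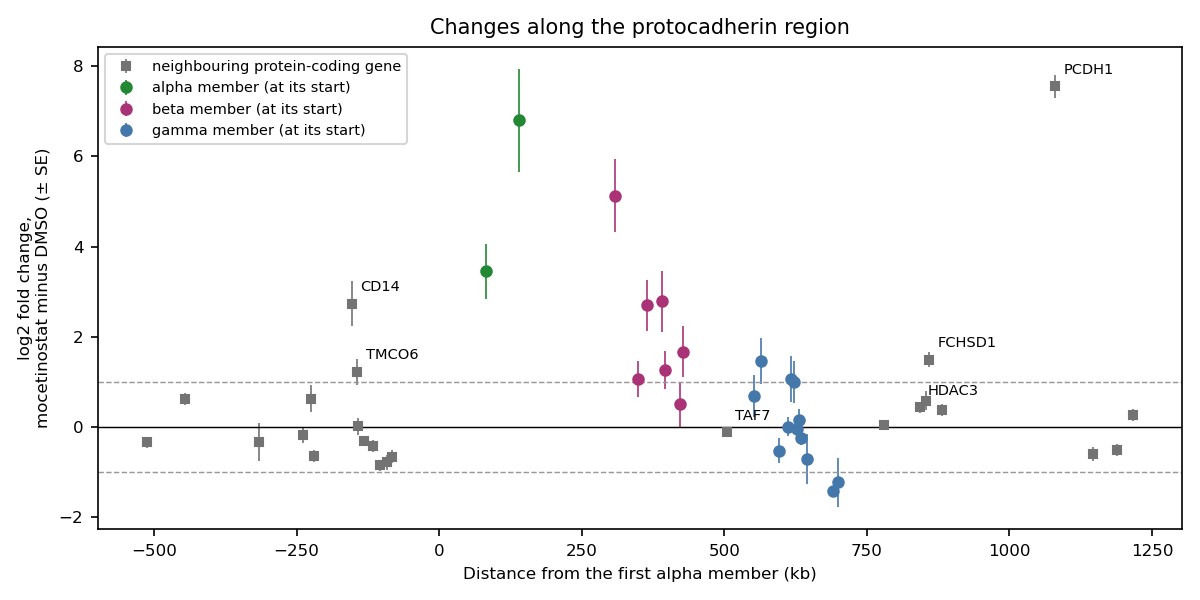
Log2 fold change (mocetinostat minus DMSO, ± SE) along the region, against distance in kb from the first alpha gene. Circles are tested alpha, beta and gamma genes at their starts, grey squares are 24 tested protein-coding neighbours at their midpoints, and dashed lines mark -1 and 1.

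Of 11 non-clustered protocadherin genes, PCDH1 included, 3 were tested and all 3 were upregulated, where 20.2% of all genes tested were. These 3, PCDH1, PCDH10 and PCDH18, had 10, 5 and 10 counts over the DMSO group. They could thus pass the filter only if higher with mocetinostat, and their calls do not describe the list. PCDH10 went from 0.31 ± 0.46 to 17.2 ± 5.85 CPM (SD, n = 3, log2 fold change 6.08 ± 0.51) and PCDH18 had a log2 fold change of 3.49 ± 0.58. Of 19 classical cadherins 9 were tested, none was downregulated and 4 were upregulated, namely CDH1, the epithelial cadherin (6.10 ± 0.44), CDH22 (5.04 ± 0.34), CDH3 (2.72 ± 0.28) and CDH4 (1.72 ± 0.22). CDH13 had the lowest change, at -0.68 ± 0.09. Of 11 atypical cadherins 9 were tested and 6 were upregulated: DCHS2, of the family of Fat ligands (3.53 ± 0.58), CDH23 (2.62 ± 0.34), FAT4 (1.72 ± 0.21), FAT3 (1.16 ± 0.16), and CELSR2 (1.64 ± 0.13) and CELSR3 (1.06 ± 0.25), both planar polarity cadherins. No tested member of these 3 lists was downregulated, where 8.18% of all genes tested were. Members near 0 with DMSO could not have been called downward.

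The looping machinery of the clusters was taken next. Of 12 genes for CTCF, cohesin and their regulators, all tested, 3 were downregulated and none was upregulated, where 8.18% and 20.2% of all genes tested were. In 11 of the 12 every mocetinostat sample lay below every DMSO sample, an order that 32.8% of all genes tested showed. CTCF had 138, 149 and 159 CPM with DMSO and 63.6, 75.6 and 63.4 CPM with mocetinostat (log2 fold change -1.16 ± 0.11, edgeR adjusted p = 2.6e-15). STAG2, a cohesin subunit gene, had 218, 208 and 206 CPM against 73.7, 75.0 and 76.3 CPM (-1.49 ± 0.10), and STAG1, its paralog, was at -1.32 ± 0.12. RAD21, the cleavable cohesin subunit gene, was at -0.89 ± 0.08. With GAPDH scaling CTCF, STAG1 and STAG2 were no longer called, and SMC3, PDS5B and ZNF143 turned positive.

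Of 17 genes for silencing and DNA methylation, all tested, 1 was upregulated and 1 downregulated, where 20.2% and 8.18% of all genes tested were. DNMT3B, a de novo DNA methyltransferase gene, was upregulated (1.04 ± 0.16) and WIZ, a zinc finger partner of the G9a methyltransferase, was downregulated (-1.03 ± 0.12). Both lay close to the fold threshold, and under 16 other settings DNMT3B kept its call in 10 and WIZ in 11. SMCHD1, a chromatin protein known to act on the protocadherin clusters, was at -0.37 ± 0.09, which turned positive with GAPDH scaling. Of 11 genes for class I HDACs and corepressors, MTA2 (-1.25 ± 0.11) and CHD4 (-1.17 ± 0.20), both of the NuRD complex, were downregulated. None of the 11 was upregulated, and the same shares over all genes apply. HDAC1 and HDAC2 were at 0.24 ± 0.10 and 0.13 ± 0.08, negative without the filter on low counts.

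Partners of the protein were read beside all genes tested, of which 20.2% were upregulated and 8.18% downregulated. Of 14 genes for cytoplasmic partners, CYFIP2, a WAVE complex subunit gene (4.57 ± 0.17), and PTK2B, encoding the kinase PYK2 (2.41 ± 0.23), were upregulated and NCKAP1, another WAVE complex subunit gene, was downregulated (-1.11 ± 0.10). Of 7 genes for the protease ADAM10 and gamma-secretase, which cut protocadherins at the membrane, APH1A was downregulated (-1.33 ± 0.15) and none was upregulated. ADAM10 was at 0.22 ± 0.09.

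Markers of chondrocytes and of other cell types were read beside these values. Of all genes tested 20.2% were upregulated, and 40.1% of those below 10 CPM. Of 13 neuronal markers, 9 were tested and all 9 were upregulated. Markers near 0 with DMSO, such as NEFL with 1 count over that group, could be tested only if higher with mocetinostat. The count of calls therefore describes the tested genes and not the list. The 13 markers summed to 17.7 to 20.2 CPM with DMSO and 222 to 258 CPM with mocetinostat, with STMN2 at 0 in every DMSO sample. Among them MAP2, a dendrite microtubule protein, was at 6.53 ± 0.25. Of 8 tested chondrocyte markers of 12, 6 were upregulated, with a sum of 117 to 142 CPM against 264 to 305 CPM. The epithelial sum of 7 genes was 901 to 1083 CPM against 1919 to 1982 CPM, with 2 of 3 tested genes upregulated. The fibroblast sum of 8 genes was 4660 to 5633 CPM against 4330 to 4704 CPM, with 3 of 7 tested genes upregulated and 1 downregulated. Of 6 haematopoietic markers CD3E and HBB were at 0 throughout, and the sum was 1.62 to 2.29 CPM against 5.35 to 11.2 CPM. The part of any of these in the protocadherin values was not tested.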

How the data were processed

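Total RNA of 6 TC28a2 samples, 3 with DMSO and 3 with mocetinostat, was read as 100-base single reads. Per the study's methods and the submitters' processing notes, the authors trimmed the reads, removed ribosomal RNA, aligned to GRCh38 with STAR 2.6.1d and assigned reads with featureCounts 1.6.4, and they deposited raw counts per gene, with replicates not pooled. DESeq2 1.20.0 is also named in those notes. Here, genes were tested with edgeR 4.0.16 (quasi-likelihood, TMM, filterByExpr, R 4.3.3), without a block, and p-values were adjusted over all genes tested. Called genes had an adjusted p below 0.05 and an absolute log2 fold change above 1. Alternatives were 16 other settings, among them DESeq2 1.42.0. The edgeR test was also run on simulated data built from the main fit, after that fit was made, and the outcome is not reported here. Ratios of raw counts were given exact 95% intervals, which cover counting error only, and a group at 0 was set to 3 counts. Approximate intervals of log2 fold changes are from the SE. Exon positions were taken from GENCODE 44.

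Members and gene lists were chosen with earlier results of these data known. Values per sample were given for the 5 tested genes of each cluster with the smallest p and for the C-type genes, as well as for further members. Of other lists and neighbours, genes called (up to 5 per direction with the smallest p) and those with the highest and lowest change were to be named. Other uncalled list genes, the called atypical cadherin beyond 5 and the cell type markers were named for their role, after their values were seen. Clusters were described by counts and medians, with no test of a cluster.

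Counts per library ranged from 1619344 to 11031132, and p-values measure the spread between the 3 samples of each condition. Same-numbered and other samples correlated alike, so the replicate numbers gave no sign of pairing. This cannot exclude that samples of the 2 conditions were paired by experiment, which the sources used here do not state.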

Additional observations from a re-analysis of the deposited data

How the results depend on the processing

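Depth limited what could be tested: after thinning to the smallest total of 1619344 counts, 8 members could be tested, and 7 when each sample had to hold at least 10 counts of a gene. Over the 16 alternatives, the 21 tested members gave 308 values, of which 254 kept their direction and side of the threshold, 30 lost a call, 5 gained one and 19 changed sign. PCDHA11, PCDHB2, PCDHB6 and PCDHB8 kept their calls under each of the 14 alternatives that tested them, and PCDHAC1 under each of 13. PCDHGC3 kept its call in 15 of 16, the exception being GAPDH scaling, and PCDHGC4 in 7 of 15. The causes of the changes were not tested, beyond the smaller number of genes or samples where a setting removes them.

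Members called upregulated (9 in the main test) numbered 1 with that minimum of 10 counts, 5 with glmTreat (a test against a log2 fold change of 1) and 0 after thinning, and members called downregulated (2) numbered 0 with GAPDH scaling and 1 with the minimum of 10 counts, glmTreat and DESeq2. By cluster, upregulated alpha genes (2) were 5 without the filter and with DESeq2, and 0 with the minimum of 10 counts and after thinning. Upregulated beta genes (6) were 3 without the filter and with glmTreat, 1 with at least 10 counts and 0 after thinning. Upregulated gamma genes (1) were 2 with RLE (DESeq2-type) size factors and with library size only, 4 with GAPDH scaling, and 0 without the filter, with at least 10 counts, with glmTreat, after thinning and with DESeq2. Downregulated gamma genes (2) were 0 with GAPDH scaling and 1 with at least 10 counts, glmTreat and DESeq2. The median log2 fold change of alpha genes was 5.59 with GAPDH scaling, 3.29 without the filter and 3.75 with DESeq2, that of beta genes 2.20, 1.496 and, with at least 10 counts, 1.14, and that of gamma genes 0.52 with GAPDH scaling, -0.21 after thinning and 0.34 with DESeq2. GAPDH scaling shifted the median of all genes by 0.54 and dropping the filter by -0.25, so medians are to be read against these.

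Leaving out 1 sample at a time gave 7 to 11 upregulated and 1 to 2 downregulated members, 1 to 2 upregulated alpha, 4 to 8 upregulated beta and 0 to 1 upregulated gamma genes, and 1 to 2 downregulated gamma genes. The medians ranged from 3.93 to 5.31 in alpha, 1.33 to 2.27 in beta and -0.22 to 0.085 in gamma. PCDHGC4 was lost without DMSO sample 2 or 3 or mocetinostat sample 1 or 2, PCDHB5 without DMSO sample 1 or mocetinostat sample 2 or 3, PCDHB13 without DMSO sample 1 or mocetinostat sample 2, and PCDHGB1 without DMSO sample 1 or mocetinostat sample 1.

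With the replicate number as a block, 9 members were upregulated and 1 was downregulated, as was 1 gamma gene, since PCDHGC4 was lost. Same-numbered samples showed no shared deviation (correlations between -0.03 and 0.03), which cannot exclude pairing by experiment.

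Over all genes, 4425 were upregulated and 284 downregulated with GAPDH scaling, 1620 and 704 with the minimum of 10 counts, 2120 were downregulated without the filter and 465 with glmTreat. Upregulated neighbours (4) were 7 with GAPDH scaling and 2 with at least 10 counts, and 2 neighbours were downregulated without the filter. Over the fixed lists, 10 genes (16) were upregulated with at least 10 counts, and downregulated genes (8) were 0 with GAPDH scaling, 15 without the filter, 4 with glmTreat and 13 after removing GC and length trends.

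Sign changes fell on members that were not called. PCDHB12 ranged from -0.0074 (without mocetinostat sample 1) to 0.72 (without DMSO sample 1) when samples were left out. PCDHGA7 was at 0.013 with GAPDH scaling and 0.57 after thinning, and PCDHGA11 at 0.31 with GAPDH scaling. PCDHGB5 was at -0.23 without the filter, -0.029 with the block, -0.21 after thinning, -0.083 after removing GC and length trends, -0.076 with DESeq2, and between -0.40 and 0.19 with 1 sample left out. PCDHGA10 was at 0.50 with GAPDH scaling, 0.041 with at least 10 counts, 0.28 after thinning, and between -0.22 and 0.11 with 1 sample left out, and PCDHGB7 at -0.10 without the filter and -0.022 after thinning.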
